A study of Mus musculus with 4 samples.

Results

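The genes described here are the core splicing factors and heterogeneous nuclear ribonucleoproteins (hnRNPs) of the mouse, followed in brain RNA on 4 Affymetrix Mouse Gene ST arrays. They were chosen by symbol alone: every gene whose symbol starts with Srsf, Hnrnp, Snrp, Sf3a or Sf3b and that has a row of its own in the deposited table. This gave 46 of 19938 genes, namely 10 SR proteins, 17 hnRNPs, 10 proteins of the small nuclear ribonucleoproteins (snRNPs) and 9 subunits of the SF3a and SF3b complexes. A gene with several rows was represented by the row with the highest mean over the 4 arrays. Hnrnpa1, Hnrnpa1l2-ps2, Hnrnpa3, Hnrnph3, Snrpf and Snrpn appear only in rows shared with another gene symbol and have no value here, and Srsf7 was not analysed here.

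The mice were of the ICR strain, an outbred stock. By the study's methods they were 1 month old at the start, received ketamine at 30 mg/kg or saline by daily intraperitoneal injection for 3 months, and gave prefrontal cortex for RNA. Ketamine is an anaesthetic that blocks NMDA receptors. There were 2 arrays per group, each labelled as a separate sample, and no genetic change was described in either group. The sample titles and the source field name opposite treatments for the same arrays, so the groups are called here by title, and every direction would turn if the source field were right. The labels give female mice and the methods male mice.

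Splicing removes introns from a new transcript. The U1 snRNP pairs with the start of the intron, and the U2 snRNP, with the SF3a and SF3b complexes as its parts, is placed on the branch site near the end. A ring of Sm proteins surrounds the RNA of most spliceosomal snRNPs. SR proteins carry an RNA-binding domain and a tail rich in arginine and serine, bind exons and help the splice sites beside them to be used, and hnRNPs coat the nascent transcript and often do the opposite. Both families set which exons are kept, and several of their members shuttle to the cytoplasm, where they act on mRNA export, stability and translation. The abundance of many SR proteins and hnRNPs is controlled through poison exons in their own transcripts, and neurons depend on the balance between these proteins for their isoforms of receptors and channels.

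Values are log2 RMA expression values, so that a difference of 1 is a doubling. The median over the rows tested was 5.90 and 5.91 on the arrays titled saline and 6.04 on both arrays titled ketamine, and the median gene was therefore higher by 0.13 on the arrays titled ketamine. Each comparison is given on the deposited scale and with every array centred on its own median. All 46 genes lay above the 95th percentile of olfactory receptor rows, which stood for signal where no brain expression is known and was 4.2 to 4.56 per array, on each of the 4 arrays. The label prefrontal cortex was not borne out on the arrays titled ketamine. Of 10 forebrain neuron markers measured, 9 were lower there, with a summed level of 12.75 on both arrays titled saline against 9.52 and 9.44, and Tbr1, a transcription factor of cortical excitatory neurons, had 3.73 and 3.69 on the arrays titled ketamine, below the olfactory receptor level. Of 12 cerebellar neuron markers, 11 were higher, with summed levels of 10.05 and 9.49 against 13.65 and 13.51. Among the other markers, 4 of 7 of astrocytes and 6 of 7 of choroid plexus were higher, 7 of 7 of microglia were lower, and 0 of 6 of oligodendrocytes and 0 of 7 of endothelium were called (2 of the 7 of endothelium and 0 of the 6 of oligodendrocytes at an unadjusted limma p under 0.05). With either array titled ketamine left out no row of the table passed on the deposited scale, while after centring 11 cerebellar, 7 microglial and 9 or 10 forebrain markers were called with any 1 array left out. The part of these markers in the splicing factor differences below was not tested, and treatment and tissue cannot be told apart in this design.

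The splicing factors and hnRNPs stood mostly higher on the arrays titled ketamine, by small steps. The differences were above 0 for 43 of 46 genes on the deposited scale and for 27 when each array was centred on the median of all 35556 rows, where 65.6% and 37.1% of all genes were above 0. On the deposited scale they had a median of 0.29, quartiles of 0.17 and 0.45, and extremes of -0.47 for Srsf12 and 0.78 for Srsf1. In limma with Benjamini-Hochberg adjustment over all 21789 rows with 1 symbol, 18 genes passed as higher, 1 as lower and 27 did not pass at an adjusted p of 0.05. In the same fit 23.2% of all genes were called higher and 9.92% lower, and among the 9877 genes at or above the median row level, as 45 of the 46 were, 28.5% and 12.7%. Past 1.3-fold were 21 genes higher and 1 lower, against 24.0% and 10.1% of all genes and 27.9% and 12.4% of those at or above the median level. The 2 groups of arrays did not overlap for 39 genes in the higher direction and 1 in the lower, where the background was 48.4% and 21.8% of all genes and 55.2% and 24.0% of genes at or above the median level. No gene of the 46 reached 2-fold in the row chosen for it, while another row of Srsf10 did, at a ratio of 2.30. In bulk tissue, fewer cells of a type and less RNA per cell cannot be told apart.

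Centring the arrays lowered the count of higher genes by more than 1.5 times. After it, 9 genes passed as higher and 1 as lower, against 14.4% and 15.1% of all genes and 17.9% and 17.0% of genes at or above the median level. The share of the 46 called higher was 39.1% on the deposited scale and 19.6% after centring. The latter was close to the 17.9% of genes at or above the median level, while the share called lower was 2.17% against 17.0%. That background was not matched for signal: its median level was 7.55, against 8.67 for the 46. The median difference was then 0.16, with 37 genes above 0 and 9 below, while the median of all genes was -0.01 and that of genes at or above the median level 0.03. Past 1.3-fold were 7 higher and 1 lower (background 14.9% and 15.3% of all genes, 18.0% and 16.9% of genes at or above the median level), and the arrays did not overlap for 28 higher and 4 lower (background 33.0% and 34.1% of all genes, 39.2% and 35.2% of genes at or above the median level). The 10 genes called after centring were all among the 19 called before it, and they were Srsf1, Srsf2, Srsf3, Srsf5, Srsf6, Hnrnpdl, Hnrnpm, Sf3a2 and Sf3a3 as higher and Srsf12 as lower. The number of calls also changed with single arrays left out, for the whole table as well as for the 46 genes. On the deposited scale, 0 members and 0 of all rows were called with either array titled ketamine left out, although 13 members without the first and 18 without the second had an unadjusted p under 0.05, and 11 and 4 members were called without the first and the second array titled saline. After centring, 3 and 6 were called without the first and the second array titled ketamine, and 9 and 2 without the first and the second titled saline. The sign was kept in each of these 4 fits on the deposited scale for all genes but Snrpa and Snrpd2. After centring it turned in at least 1 of them for Hnrnph2, Hnrnpk, Hnrnpr, Hnrnpul2, Sf3b2, Snrpb2, Snrpd3, Snrpg and Srsf9. With 2 arrays against 2, an exact permutation test of a single gene cannot give a two-sided p under 0.333, and nothing in the labels says which samples share an animal, a day or an extraction, so the adjusted p-values reflect no more than the spread among these samples, which may be technical.

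**Figure D1:**
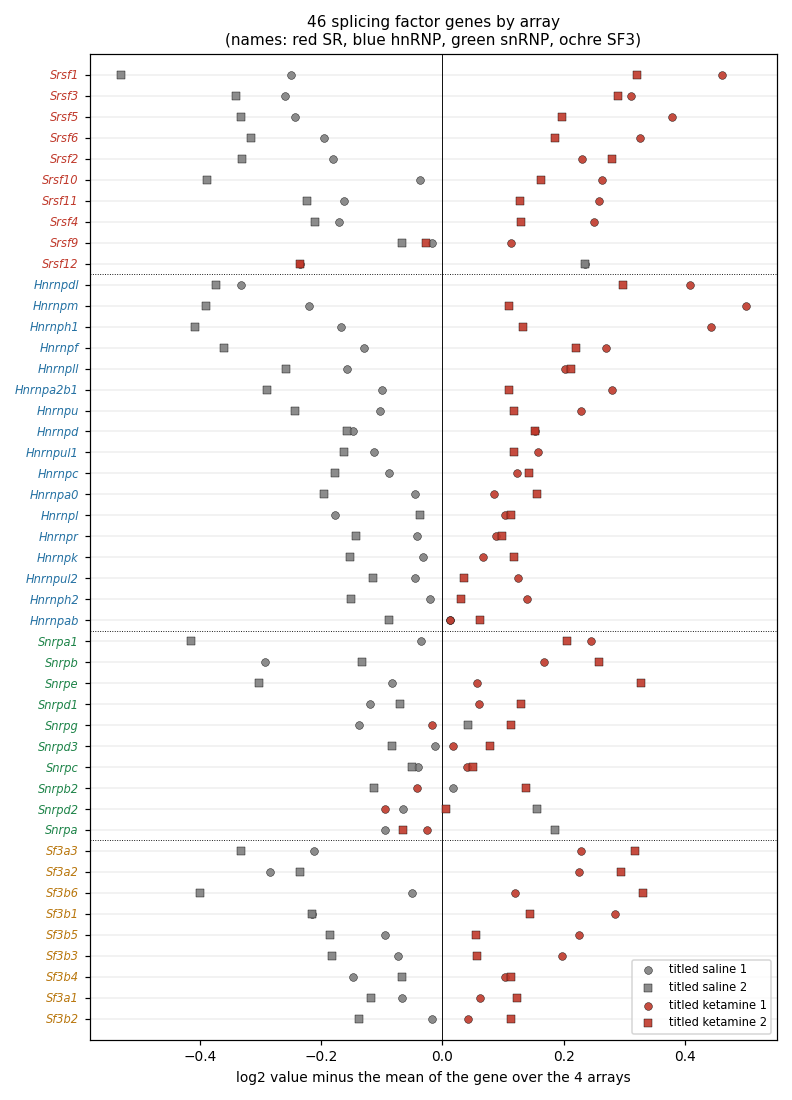
Log2 expression of each of the 46 genes on each of the 4 arrays, with the mean of the gene over the 4 arrays subtracted, on the horizontal axis, and the genes grouped by family and ordered by their difference on the vertical axis. Grey marks are arrays titled saline and red ones arrays titled ketamine, circles the first and squares the second of each. The SR proteins spread furthest, from Srsf1 with a difference of 0.78 to Srsf12 with -0.47, and the snRNP proteins lie closest to 0, with a median difference of 0.10.

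The SR proteins had the largest median difference of the 4 families. Of 10, 7 were higher, 1 was lower and 2 did not pass, with a median difference of 0.46 on the deposited scale and 0.33 after centring, where 5 were higher and 1 lower. The differences between families were not tested. Srsf1, which binds exonic enhancers and was long studied as a general splicing factor, had 9.10 and 8.82 on the arrays titled saline and 9.81 and 9.67 on those titled ketamine. Both arrays titled ketamine lay above both titled saline, and the arrays titled saline were further apart than the other pair. The difference was 0.78 (SE 0.133, limma adjusted p = 0.0049), a ratio of 1.72, and 0.64 after centring (adjusted p = 0.00758). Srsf3, the smallest SR protein and an adaptor of mRNA export, had 10.06 and 9.98 against 10.63 and 10.61, a difference of 0.60 (SE 0.105, adjusted p = 0.00553) with no overlap and with close replicates in both groups. Its 3 rows in the table differed by 0.60, 0.52 and 0.71 and were all called.

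Srsf5 had 9.67 and 9.58 on the arrays titled saline and 10.29 and 10.11 on those titled ketamine, a difference of 0.58 (SE 0.116, adjusted p = 0.00911). Srsf6 had 7.84 and 7.72 against 8.36 and 8.22, and Srsf2, which binds exonic enhancers through its RNA-recognition motif, had 9.29 and 9.14 against 9.70 and 9.75. The groups did not overlap for any of these 3 genes. After centring all 3 were called, Srsf5 at a limma adjusted p of 0.0239. The adjusted p-values of Srsf6 (0.0429) and Srsf2 (0.0451) were close to the threshold. Srsf11 and Srsf4, named here after their values were seen, were also called higher on the deposited scale (0.39 and 0.38) and not after centring (adjusted p = 0.137 and 0.144). Srsf10 and Srsf9, likewise named after the fact, did not pass: Srsf10, an SR protein known as a splicing repressor when it is dephosphorylated, differed by 0.42 (SE 0.141, adjusted p = 0.0581), and Srsf9 by 0.08 (SE 0.111, adjusted p = 0.597). Srsf12, a relative of Srsf10, went the other way. It had 6.69 on both arrays titled saline and 6.22 on both titled ketamine, a difference of -0.47 (SE 0.103, adjusted p = 0.0131) that was -0.61 after centring (adjusted p = 0.00354). With each array left out, every SR protein kept its sign on the deposited scale. The differences ranged from 0.64 to 0.92 for Srsf1, 0.56 to 0.64 for Srsf3 and 0.24 to 0.60 for Srsf10, while Srsf12 stayed at -0.47. After centring they ranged from 0.49 to 0.79, 0.41 to 0.51 and 0.10 to 0.47, and for Srsf12 from -0.62 to -0.60. Srsf9 then turned its sign, between -0.13 and 0.02.

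The hnRNPs were all above 0 on the deposited scale, 16 of 17 after centring and 10 of 17 when the centring used all rows. On these scales 65.6%, 49.3% and 37.1% of all genes were above 0. On the deposited scale 6 of 17 were called higher (35.3%), against 23.2% of all genes and 28.5% of genes at or above the median row level. The median difference was 0.27, and 0.14 after centring. There 2 passed (11.8%), a share below the 14.4% of all genes and the 17.9% of genes at or above the median row level. Hnrnpdl, a relative of Hnrnpd, had the largest difference: 8.93 and 8.89 on the arrays titled saline and 9.67 and 9.56 on those titled ketamine. The difference of 0.70 (SE 0.107, adjusted p = 0.00311) was 0.57 after centring (adjusted p = 0.00593) and ranged from 0.51 to 0.62 after centring with each array left out, with a call in all 4 of those fits. Hnrnpm, which binds GU-rich sequences, had 9.51 and 9.34 against 10.23 and 9.84. The groups did not overlap, and the 2 arrays titled ketamine were 0.39 apart, the widest such gap among the 46 genes. Its difference was 0.62 (SE 0.152, adjusted p = 0.0204), and 0.48 after centring (adjusted p = 0.0417). Hnrnph1 and Hnrnpf, both binders of G-rich sequences, were higher by 0.58 (SE 0.147, adjusted p = 0.0229) and 0.49 (SE 0.12, adjusted p = 0.0199), and after centring by 0.44 and 0.35 with adjusted p-values of 0.0521 and 0.0644. Hnrnph1 had 10.18 and 9.94 against 10.79 and 10.48, and Hnrnpf 9.86 and 9.63 against 10.26 and 10.21. Both were separated, with the second array lower than the first in either group.

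The remaining called hnRNPs were Hnrnpa2b1 and Hnrnpll, the latter named after its values were seen. Hnrnpa2b1, a carrier of RNA in dendrites and a splicing regulator, had 9.56 and 9.37 against 9.94 and 9.77, a difference of 0.39 (SE 0.123, adjusted p = 0.0488), and Hnrnpll differed by 0.42 (adjusted p = 0.0231). Neither passed after centring. Hnrnpu, a scaffold protein of the nuclear matrix, had 10.78 and 10.64 against 11.11 and 11.00, a difference of 0.34 (SE 0.113, adjusted p = 0.0547). Hnrnpd, also called AUF1, had 10.06 and 10.05 against 10.36 on both arrays titled ketamine, a difference of 0.30 (adjusted p = 0.0596). Hnrnpc, which binds uridine-rich stretches, differed by 0.27 (adjusted p = 0.0936), Hnrnpl, a binder of CA repeats, by 0.21 (adjusted p = 0.178), and Hnrnpk, a binder of C-rich sequences, by 0.18 (adjusted p = 0.232). None of these 5 passed. Their arrays did not overlap on the deposited scale, and those of Hnrnpk did after centring. Higher without overlap on the deposited scale were 48.4% of all genes and 55.2% of genes at or above the median row level. Hnrnpab was the hnRNP with the smallest difference, 0.07 (adjusted p = 0.637, named after its values were seen), with 10.04 and 9.94 against 10.04 and 10.09, and it overlapped between the groups. No hnRNP passed on the deposited scale with either array titled ketamine left out, and 2 and 1 passed without the first and second array titled saline. After centring, 1 and 3 passed without the first and second array titled ketamine.

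**Figure D2:**
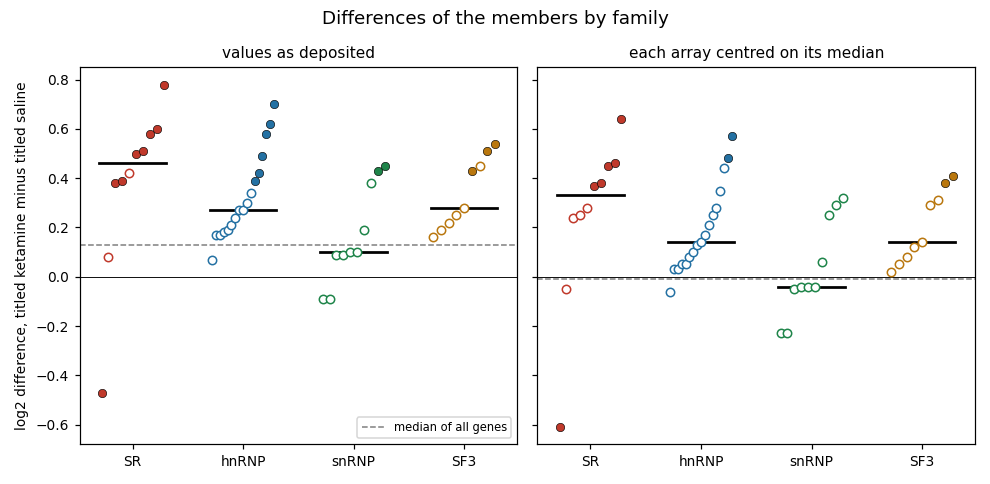
Log2 difference between arrays titled ketamine and arrays titled saline for each gene of the 4 families, as deposited (left) and with every array centred on its median (right). Filled points passed the limma threshold, bars are family medians and the dashed line is the median of all genes. The SR protein median falls from 0.46 to 0.33, the hnRNP and SF3 medians to 0.14 each, and the snRNP median from 0.10 to -0.04.

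The Sm and other snRNP proteins differed least. Of 10, 2 were called higher (20.0%) and 8 did not pass. That share was below the 23.2% of all genes and the 28.5% of genes at or above the median row level. The median difference was 0.10, and -0.04 after centring, where 4 of 10 were above 0, against 49.3% of all genes. After centring 0 passed with limma (1 of the 10 at an unadjusted p under 0.05), against 14.4% of all genes called higher. Snrpa1, the U2 snRNP protein A′, had 7.27 and 6.89 on the arrays titled saline and 7.55 and 7.51 on those titled ketamine. The arrays titled saline were 0.38 apart, the widest such gap among the 46 genes, and both lay below the pair titled ketamine. The difference was 0.45 (SE 0.144, adjusted p = 0.0486). Snrpb, which gives the Sm proteins B and B′ of the ring, had 7.71 and 7.87 against 8.17 and 8.26, a difference of 0.43 (SE 0.114, adjusted p = 0.0263). Snrpe, another Sm protein, had 8.65 and 8.43 against 8.79 and 9.06, a difference of 0.38 (SE 0.138, adjusted p = 0.0708), and Snrpd1 differed by 0.19 (adjusted p = 0.205). These last 2 did not pass. Snrpa, the U1 snRNP protein A, had 8.51 and 8.79 against 8.58 and 8.54, and Snrpd2 8.16 and 8.38 against 8.13 and 8.23. Both differed by -0.09, with overlapping arrays and adjusted p-values of 0.605 and 0.589. Their sign turned when the second array titled saline was left out, to 0.05 and 0.02. With either array titled ketamine left out, or without the second titled saline, no snRNP protein passed, and 1 passed without the first titled saline.

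The SF3a and SF3b subunits belong to the U2 snRNP and hold the branch site. They were above 0 in 9 of 9 cases on the deposited scale and after centring. When the centring used all rows, 6 of 9 were. Above 0 on these scales were 65.6%, 49.3% and 37.1% of all genes. On the deposited scale the arrays did not overlap for any of the 9. The same held in the higher direction for 48.4% of all genes and 55.2% of genes at or above the median row level. After centring the arrays did not overlap for 6 of the 9, against 33.0% and 39.2%. These counts use the chosen row of Sf3b4, whose other row was called lower (-0.52, limma adjusted p = 0.033). Of the 9 subunits, 3 were called higher (33.3%) and 6 not, with a median of 0.28. After centring 2 were called (22.2%), with a median of 0.14. The shares called higher were 23.2% and 14.4% of all genes, and 28.5% and 17.9% of genes at or above the median row level. Sf3a3 had 7.81 and 7.69 on the arrays titled saline and 8.25 and 8.34 on those titled ketamine, a difference of 0.54 (SE 0.11, adjusted p = 0.00971). Sf3a2 had 6.43 and 6.48 against 6.94 and 7.01, a difference of 0.51 (SE 0.105, adjusted p = 0.01). Sf3a1 had 7.76 and 7.71 against 7.89 and 7.95, a difference of 0.19 (SE 0.105, adjusted p = 0.214). The 3 subunits of SF3a therefore gave 2 calls and 1 that missed, though all differed in the same direction. Sf3b1, the large subunit that contacts the branch site and is often mutated in blood cancers, had 9.66 on both arrays titled saline and 10.16 and 10.02 on those titled ketamine, a difference of 0.43 (SE 0.11, adjusted p = 0.0234), and was not called after centring (0.29, adjusted p = 0.091). Sf3b6, the branch site contact of SF3b also known as p14, had 7.02 and 6.67 against 7.19 and 7.40, a difference of 0.45 (SE 0.15) that missed the threshold at an adjusted p of 0.0573. No SF3 subunit passed with either array titled ketamine left out on either scale, and 2 and 1 passed without the first and second array titled saline, 1 and 0 after centring.

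The family means show where the pattern lies across arrays. On the 4 arrays, in the order titled saline 1 and 2 and titled ketamine 1 and 2, the mean of the SR proteins was 8.63, 8.51, 8.99 and 8.90, of the hnRNPs 9.36, 9.25, 9.67 and 9.60, of the snRNP proteins 8.01, 8.02, 8.14 and 8.22, and of the SF3 subunits 7.55, 7.47, 7.84 and 7.85. Measured above each array's own median, the snRNP mean was 2.12, 2.11, 2.10 and 2.18, so the 2 groups overlapped, while the SR mean was 2.73, 2.59, 2.95 and 2.86. Within the pairs, 9 of 10 SR proteins were higher on the first array than the second, both in the arrays titled saline (median 0.09) and in those titled ketamine (median 0.12). The snRNP proteins showed the reverse in the arrays titled ketamine, with 2 of 10 higher on the first array. Of all 46 genes, 37 were higher on the first array titled saline than on the second, and 24 in the pair titled ketamine. Among the 9877 genes at or above the median row level, these counts were 6059 and 4756.

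**Figure D3:**
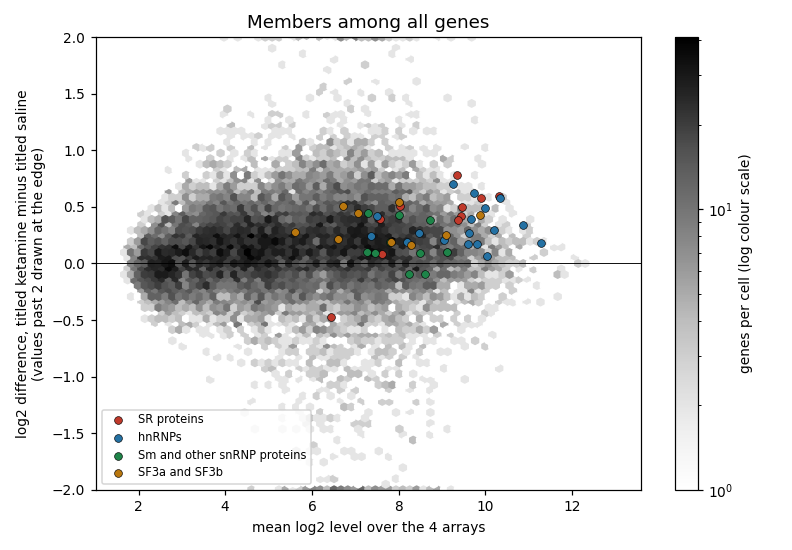
Log2 difference between the groups on the deposited scale against the mean log2 level over the 4 arrays, for all genes in grey (darker cells hold more genes, differences past 2 are drawn at the edge) and for the 46 splicing factors and hnRNPs as coloured points. The 46 genes lie in the upper part of the level range, with 45 at or above the median row level, and 37 of 46 have a difference above that of the median gene, 0.13.

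Of the 46 genes, 10 had more than 1 row, 28 rows in all. For 8 of these genes every row had the sign of the highest one, and no gene was called in opposite directions by its rows, with a median range of 0.15 between them. The exceptions were Sf3b4 and Snrpd2. The chosen row of Sf3b4 had 6.46 and 6.54 against 6.71 and 6.72, a difference of 0.22 (adjusted p = 0.154), and its other row had 5.60 and 5.94 against 5.14 and 5.35, a difference of -0.52 (SE 0.148, adjusted p = 0.033). The 2 rows of Srsf10 had the widest range, 0.78. Its other row had 6.14 and 5.39 against 7.00 and 6.94, a difference of 1.20 (SE 0.223, adjusted p = 0.0068) where the chosen row did not pass. The 4 rows of Hnrnpf differed by 0.49, 0.48, 0.44 and 0.71 and were all called. Rows of 1 gene carry the same gene number, and near-identical copies of a gene can share signal, so the single-row values of these 10 genes are uncertain.

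**Figure D4:**
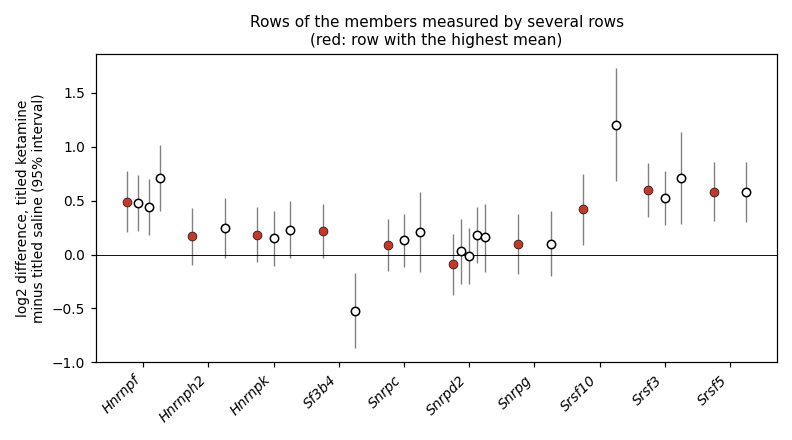
Log2 difference between arrays titled ketamine and arrays titled saline for each row of the genes that have more than 1 row, with the 95% interval from limma and the row used for the gene in red. Rows of Srsf3 and Hnrnpf stay close together and above 0, while the 2 rows of Srsf10 are 0.78 apart and those of Sf3b4 lie on both sides of 0.

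Promoter sequence was read for the members from RefSeq (GRCm38.p6), as the 250 bases before the first listed start of each gene, which was given for 40 of the 46. The windows were searched on both strands for CCAAT (the CCAAT box), CCGGAAG (an ETS factor motif), the NRF1 motif, TGACGTCA (the CRE), GGGCGG (the GC box), AAGATGGCG (YY1) and TATAAA (the TATA box). CCGGAAG was in 14 of 40 windows (35.0%), against 9.63% of 15563 genes with a window and 14.0% of 7990 genes at or above the median level, and in 6 of 7 windows of SF3 subunits. CCAAT was in 17 of 40 (42.5%, against 35.5% and 36.0%), and in 10 of 15 windows of hnRNPs. GGGCGG was in 28 (70.0%, against 46.1% and 62.0%), the NRF1 motif in 5 (12.5%, against 5.86% and 9.19%), TGACGTCA in 2 (5.0%, against 2.13% and 2.97%), TATAAA in 5 (12.5%, against 11.2% and 5.69%) and AAGATGGCG in 0 (against 0.777% and 1.24%). The 5 windows below lie wholly outside the transcribed span and were chosen to show matches to the ETS motif, the GC box, the CCAAT box and the TATA box, with all matches to the motifs in capitals, read as their reverse complement where they lie on the other strand. Sf3a3 (chr4:124714611-124714860, + strand) and Sf3b6 (chr12:4817358-4817607, + strand) hold CCGGAAG, Sf3b6 with GGGCGG beside it, Hnrnpr (chr4:136310692-136310941, + strand) holds CCAAT in 4 places, and Hnrnpm (chr17:33685459-33685708, - strand) and Srsf3 (chr17:29032410-29032659, + strand) hold TATAAA. A match is a string of letters and no measured binding site. In these windows no 2 motif matches share a base.
Sf3a3: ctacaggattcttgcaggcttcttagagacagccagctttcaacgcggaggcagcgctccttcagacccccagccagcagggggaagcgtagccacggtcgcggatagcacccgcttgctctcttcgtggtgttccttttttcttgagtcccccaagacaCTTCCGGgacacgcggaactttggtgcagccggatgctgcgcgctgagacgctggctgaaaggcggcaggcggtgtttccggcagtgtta
Sf3b6: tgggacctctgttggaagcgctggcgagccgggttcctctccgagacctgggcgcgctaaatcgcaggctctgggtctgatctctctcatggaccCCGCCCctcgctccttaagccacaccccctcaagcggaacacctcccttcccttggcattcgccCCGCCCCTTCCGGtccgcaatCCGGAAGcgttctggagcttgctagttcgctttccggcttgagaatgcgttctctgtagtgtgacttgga
Hnrnpr: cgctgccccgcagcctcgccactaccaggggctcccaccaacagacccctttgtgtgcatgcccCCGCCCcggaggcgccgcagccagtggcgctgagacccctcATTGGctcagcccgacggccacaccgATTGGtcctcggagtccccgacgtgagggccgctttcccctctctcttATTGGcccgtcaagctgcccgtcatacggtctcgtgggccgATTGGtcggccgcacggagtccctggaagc
Hnrnpm: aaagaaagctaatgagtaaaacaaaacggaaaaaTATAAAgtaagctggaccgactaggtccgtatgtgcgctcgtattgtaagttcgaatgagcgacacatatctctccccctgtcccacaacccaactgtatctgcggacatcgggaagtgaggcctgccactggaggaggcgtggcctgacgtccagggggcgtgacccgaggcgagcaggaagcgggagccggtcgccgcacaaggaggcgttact
Srsf3: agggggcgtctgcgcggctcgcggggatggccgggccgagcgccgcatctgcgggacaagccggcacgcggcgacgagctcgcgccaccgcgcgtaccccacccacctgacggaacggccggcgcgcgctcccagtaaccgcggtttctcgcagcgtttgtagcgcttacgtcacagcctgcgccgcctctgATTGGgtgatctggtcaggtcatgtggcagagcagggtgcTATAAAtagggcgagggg

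The other genes of the splicing machinery give the setting. Of all genes, 23.2% were called higher on the deposited scale and 14.4% after centring. Of genes at or above the median row level, the shares were 28.5% and 17.9%. Of 31 measured snRNP proteins outside the 46, 12 were higher (38.7%) and 19 did not pass, with a median of 0.30. They include the U1, tri-snRNP and LSm proteins, and 7 were higher after centring (22.6%). Prpf39 and Prpf38b had the largest differences, with 6.67 and 6.30 against 7.88 and 7.83 (1.37, adjusted p = 0.00063) and 7.78 and 7.55 against 9.13 and 8.84 (1.32, adjusted p = 0.000707). Both are of the spliceosome, Prpf39 of the U1 snRNP, and both were more than 2-fold higher. Of 15 factors that recognise the branch site and the end of the intron, 8 were higher (53.3%) and 7 did not pass, with U2surp at 0.68. After centring 6 were higher (40.0%). Of 24 Prp19 complex proteins and helicases, 9 were higher (37.5%) and 15 did not pass. After centring 1 was higher, Cwc22 (0.74 on the deposited scale), a share of 4.17% and below both backgrounds. Of 22 exon junction complex proteins and SR-related coactivators, 8 were higher (36.4%), with Tra2b at 0.65. After centring 4 were higher (18.2%), near the 17.9% of genes at or above the median row level. Scaf1 was called lower after centring (-0.46, limma adjusted p = 0.0137) and not before it (-0.33, adjusted p = 0.0508). Without the first and second array titled saline the counts of higher genes in these 4 lists were 9 and 6, 6 and 4, 3 and 0, and 5 and 2, and with either array titled ketamine left out they were 0 on the deposited scale. After centring they were 6 and 6, 0 and 1, 0 and 2, and 1 and 5 without the first and second array titled ketamine. The genes of these lists are named by size of difference, after their values were seen.

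Among 8 kinases of SR proteins, which phosphorylate the arginine and serine tail, 4 were higher and 4 did not pass. Clk1, a nuclear kinase of the CLK family, had 8.36 and 8.28 against 9.33 and 9.37, a difference of 1.03 (SE 0.106, adjusted p = 0.000582), and Clk4 and Prpf4b each differed by 0.87. After centring 3 kinases were called, and 3 with any 1 array left out. Srpk1, Srpk2 and Srpk3, of the other family of SR kinases, differed by -0.05, -0.09 and -0.04 and did not pass. Of 17 proteins of snRNP assembly, 5 were higher (29.4%), near the 28.5% of genes at or above the median row level. Among the 5 were Gemin2 (0.58) and Smn1 (0.50), the gene behind spinal muscular atrophy in people. After centring 2 of the 17 were higher (11.8%), below the 14.4% of all genes. Of 30 splicing regulators known for tissue-specific action, 7 were higher and 7 lower (23.3% each), against 23.2% and 9.92% of all genes. Celf5 (-2.07) and Khdrbs3 (-2.01) were the furthest down and Nova1 (0.75) the furthest up. Without the first and second array titled saline 2 and 1 of the assembly proteins were called higher, as were 5 and 2 of the tissue-specific regulators, of which 7 and 6 were called lower. With either array titled ketamine left out all these counts were 0 on the deposited scale.

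**Figure D5:**
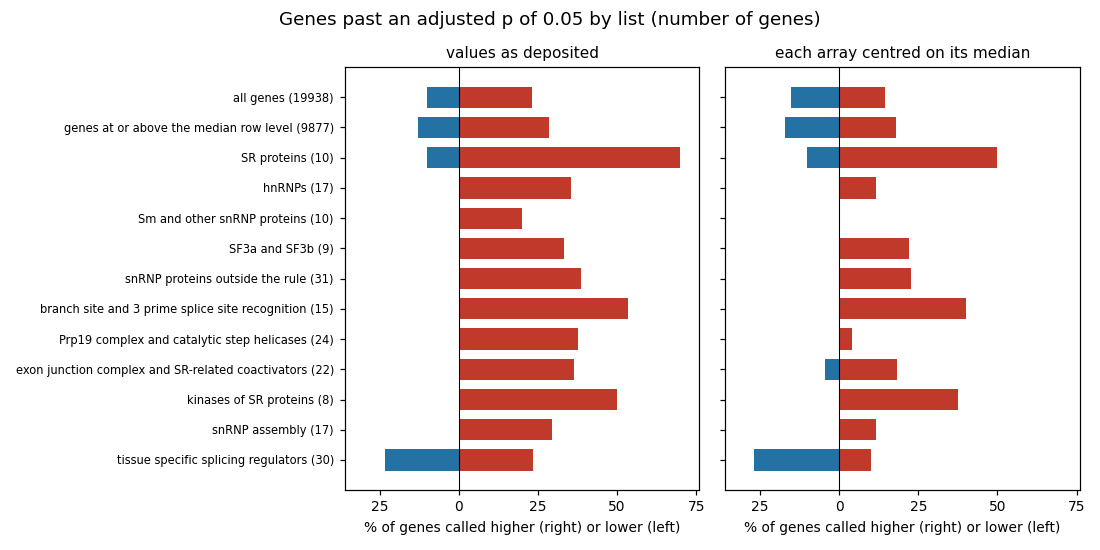
Share of genes called higher (red, to the right) and lower (blue, to the left) in each family of the 46 genes and in each list of other splicing genes, in percent, beside the share among all genes and among genes at or above the median row level, on the deposited scale and after centring. The SR proteins have the longest bar to the right in both panels, 7 of 10 genes and then 5 of 10, against 23.2% and then 14.4% of all genes, and the snRNP proteins have no bar after centring.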

How the data were processed

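RNA from 4 samples was measured on 1-colour Affymetrix Mouse Gene ST arrays. The values the authors deposited are log2 RMA expression values, which per the labels come from the Affymetrix Expression Console, while the series text names another Affymetrix tool. Software version and genome build: not given in the sources used here. RMA gives the arrays 1 distribution of probe values before summarising them, so a shift of most genes in 1 direction would be partly removed. The number of arrays limits the precision.

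Groups follow the sample titles. The 21789 rows with 1 gene symbol in the platform annotation were fitted with limma (version 3.58.1, R 4.3.3) by lmFit and eBayes without trend or robust option, on the deposited values and on values centred on each array's median, with Benjamini-Hochberg adjustment over all of them and a threshold of 0.05. Called means past it. The script was tested on simulated data. Members, lists and tests were chosen with earlier results of these data known. The genes named were 17 measured members of a set of well-known ones and up to 4 of each family with the largest difference in each direction, 27 in all. Others are said to be chosen after their values were seen. Promoters came from RefSeq (GRCm38.p6). Alternatives were centring on all rows, quantile normalization, a filter on dim rows, the mean of a gene's rows, moderation, a replicate block and each array left out. No column of sample values was left unused, and no authors' comparison was used.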

Additional observations from a re-analysis of the deposited data

How the results depend on the processing

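Depth is not defined for arrays, and 2 arrays per group and 2 residual degrees of freedom limit the precision. A group left with 1 array was assumed to vary like the other. Srsf12 was called lower on both scales by all settings with the moderated fit of all 4 arrays. Updating symbols changed nothing. The comparison of Snrpn with Snrpb was not run, because the row naming Snrpn carries 2 symbols. The cause of the changes below was not tested.

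Centring on the rows tested gave 9 higher calls, 2 for hnRNPs and 0 for snRNP proteins, a median of 0.16, 7 genes past 1.3-fold and 4 with lower, non-overlapping arrays. Centring on all rows gave, from either scale, 3 higher calls (SR 2, hnRNP 1, snRNP 0, SF3 0), a median of 0.05, 2 past 1.3-fold and 17 higher and 9 lower without overlap. It turned the deposited sign of 16 of the 46 genes, among those named Hnrnpk (-0.06), Hnrnpl (-0.03), Sf3a1 (-0.06) and Snrpd1 (-0.05), none of which was called. Against the values centred on the rows tested, 36 of the 46 kept their sign. Quantile normalization gave 11 higher calls (hnRNP 4, snRNP 0), a median of 0.2, 10 past 1.3-fold and 4 lower without overlap. The filter on dim rows called 10 hnRNPs, and 4 after centring. Trend and robust moderation called 11 hnRNPs and 5 SF3 subunits, and after centring 4 hnRNPs and 1 snRNP protein. The ordinary linear model called 0 genes higher in every family on either scale and 0 lower after centring, although 20 and 7 members had an unadjusted p under 0.05. At 2-fold, 0 of the chosen rows were higher and 0 lower. The mean of all rows turned Snrpd2 to 0.05 and Sf3b4 to -0.15 on the deposited scale, and after centring Sf3b4 to -0.29 and Snrpc to 0.01. With each array left out, Snrpa ranged from -0.23 to 0.05 and Snrpd2 from -0.21 to 0.02, both above 0 without titled saline replicate 2, where Hnrnpk after centring was -0.02.

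With each array left out, higher calls ranged from 0 to 11 (SR 0 to 6, hnRNP 0 to 2, snRNP 0 to 1, SF3 0 to 2) and after centring from 1 to 8 (SR 0 to 4, hnRNP 1 to 3, snRNP 0 to 1, SF3 0 to 1). Lower calls were 0 and after centring 1. The median ranged from 0.26 to 0.32, and after centring from 0.12 to 0.19. Past 1.3-fold were 12 to 21 higher, after centring 6 to 13. With 1 array against 2, groups separate more easily: lower without overlap were 1 to 3 members (26.7% to 32.1% of all genes), after centring 5 to 10 (41.0% to 45.1%), and higher 40 to 42 (54.7% to 60.3%) and 28 to 37 (39.6% to 43.6%).

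The replicate numbers share only a number: deviations of same-numbered arrays correlated at 0.034 over 21789 rows. With the replicate number as a block, 23 members were called, including all 19, and after centring 12, including all 10, with 4 hnRNPs.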
